A study of Mus musculus with 8 samples.

Results

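The respiratory chain complexes II to V, cytochrome c and the ATP synthase are built from subunits that are encoded in the nucleus, made in the cytosol and imported into the mitochondrion, together with a few that are encoded in mitochondrial DNA. The genes described here are all protein-coding mouse genes of Ensembl 96 whose symbol begins with Uqcr, Cox4 to Cox8 or Atp5, or is Sdha, Sdhb, Sdhc, Sdhd, Cyc1, Cycs or Ndufa4. The rule matched 51 genes under 50 symbols, of 22028 protein-coding genes and 36047 genes in all with a transcript in the data, namely 4 of complex II, 9 of complex III, cytochrome c, 19 of complex IV and 18 of complex V. It used names only and no measured value. Atp5s and Cox7a2l are kept by the rule although the first is not a subunit of the purified enzyme and the second is known as a factor of supercomplex assembly.

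RNA was measured in muscle stem cells (MuSCs), the Pax7-positive cells that rebuild skeletal muscle after injury, from 3 mice fed a diet without vitamin A (VA-free) and 2 mice fed normal chow (control) for 8 weeks. All 5 were Pax7-nTnG males of 5 to 6 months, which carry Pax7 CreERT2 and a Rosa26 reporter that switches nuclei from TdTomato to GFP where Cre has acted, and all received tamoxifen on 5 days at 75 mg/kg. MuSCs were sorted by nuclear GFP from gastrocnemius and quadriceps, a mark that Cre leaves in Pax7-expressing cells and their progeny, and no library without tamoxifen is analysed here. The RNA of a mouse was divided on the extraction column into technical replicates A and B, and 8 libraries are analysed here (VA-free 1B, 2A, 3A and 3B, control 1A, 1B, 2A and 2B).

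Complex II (succinate dehydrogenase) passes electrons from succinate to ubiquinone and is the only one of these complexes without a mitochondrially encoded subunit. Complex III passes electrons from ubiquinol to cytochrome c, complex IV passes them from cytochrome c to oxygen, and complex V makes ATP from the proton gradient that results. Quiescent MuSCs hold few mitochondria and are known to add more when they activate. The genes of these complexes have short transcripts as a rule, and many share binding sites for the nuclear respiratory factors in their promoters.

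Of the 49 members that passed the expression filter, 41 were lower in VA-free MuSCs, 2 were higher and 6 did not pass the threshold (edgeR's quasi-likelihood test over 17997 genes, Benjamini-Hochberg adjusted p under 0.05). Among all genes tested, 22.5% were lower and 18.9% were higher. The median log2 fold change, VA-free over control, was -1.19 for the members and 0.00 for all genes tested, and 46 of the 49 lay below 0. For 43 members every VA-free mouse lay below both control mice, which held for 32.3% of all genes tested. For 3 members every VA-free mouse lay above, which held for 5587 of the 17997 genes tested, and for 3 the diets overlapped. The remaining members, Cox7b2 and Cox8c, which are testis forms of complex IV subunits, had no counts in any library and were not tested. Libraries held between 44831232 and 88650428 estimated counts, of which the members took 0.617% to 0.653% in VA-free and 0.888% to 1.01% in control libraries.

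**Figure D1:**
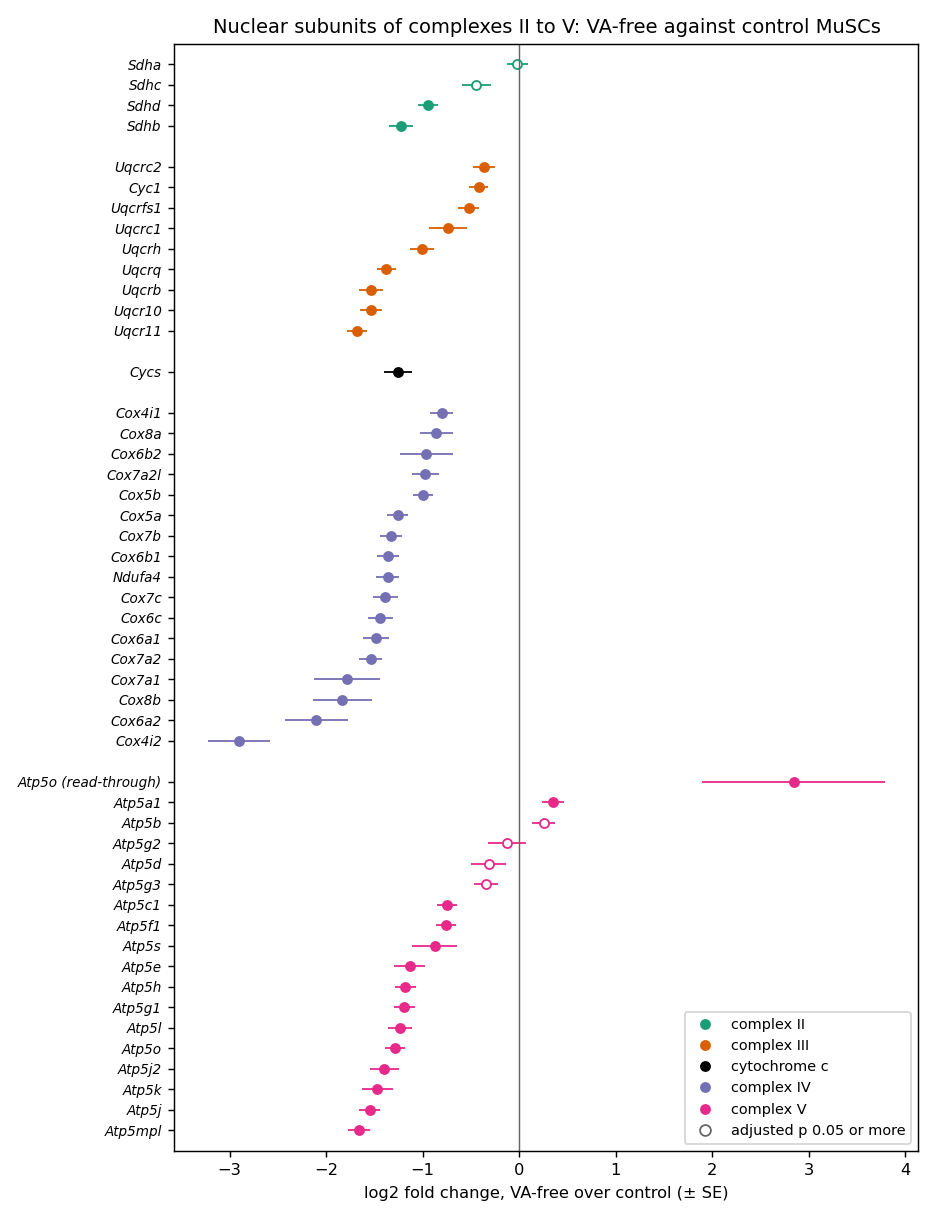
The log2 fold change of each of the 49 tested members, VA-free over control, is plotted with its standard error on the horizontal axis, with members grouped by complex from top to bottom and open circles for an adjusted p of 0.05 or more. All members of complexes III and IV lie left of 0, whereas Sdha of complex II and Atp5a1, Atp5b and the read-through model of Atp5o in complex V lie at or right of 0.

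In complex IV 17 of 17 tested members fell, with a median log2 fold change of -1.36, and in complex III 9 of 9 fell, with a median of -1.01. Complex II had 2 lower members of 4 and a median of -0.69. Complex V had 12 lower, 2 higher and 4 below the threshold of 18, and a median of -1.004. No test of the difference between complexes was made, since subunits of a complex are not replicates.

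The sorted cells of both diets held RNA of MuSC markers, and the GFP label itself is not quantified here. All 12 MuSC markers checked, Pax7 among them, were detected in every library, 11 of the 12 were higher in VA-free MuSCs, and their summed level was 8079 to 9480 CPM in VA-free and 3093 to 5562 CPM in control libraries. CPM is a gene's share of the counts of a library after TMM scaling, not divided by transcript length. Markers of other cells moved with the diets too. The 10 endothelial markers summed to 289 to 381 CPM in VA-free and 1935 to 5160 CPM in control libraries, with 10 of 10 lower, and the 5 erythroid markers summed to 28.8 to 243 and 1302 to 1909 CPM, with 4 of 5 lower. Of the 16 myofiber markers 9 were lower, with sums of 419 to 551 and 642 to 800 CPM. Of Schwann cell markers 6 of 6 were lower, of tenocyte markers 5 of 6 and of fibro-adipogenic progenitor markers 5 of 8. Of pericyte and smooth muscle markers 4 of 8 were lower, and of macrophage markers 3 of 9. Among all genes tested 22.5% were lower and 18.9% higher. The macrophage share, 33.3%, was not far from that, and 6 of the 9 overlapped between the diets. Higher were 1 fibro-adipogenic marker and 1 pericyte or smooth muscle marker. The latter was Notch3, at a mean of 861 CPM in VA-free and 125 CPM in control mice. The fibro-adipogenic markers nevertheless summed to more in VA-free (11580 to 12642 CPM) than in control libraries (3727 to 9533 CPM). Most of that sum was Col3a1, the 1 marker of this list that was higher. Its mean was 11220 CPM in VA-free and 4303 CPM in control mice, so the sum does not speak for the other markers. The sums of pericyte and smooth muscle markers were 1710 to 1997 and 2729 to 3273 CPM, those of Schwann cell markers 33.6 to 43.7 and 291 to 612 CPM, those of tenocyte markers 40.1 to 66.1 and 606 to 1099 CPM, and those of macrophage markers 23.8 to 153 and 180 to 918 CPM. Mrc1 in control 1B was the only marker of any list at 0 in a library. The part of these cells in the results on the members was not tested, and in bulk RNA fewer cells of a type and less RNA per cell cannot be told apart.

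Complex II holds a flavoprotein and an iron-sulfur protein on the matrix side and a pair of membrane anchors. Sdha, the flavoprotein that oxidizes succinate (chr13:74322254-74350280), was at 460.2, 468 and 496 CPM in VA-free mice 1, 2 and 3 and at 469 and 491 CPM in control mice 1 and 2. The diets overlapped, and the log2 fold change was -0.02 (standard error, SE, 0.11, adjusted p = 0.919 by edgeR). Sdhb, the iron-sulfur subunit (chr4:140961203-140979193), was at 148, 146 and 143 CPM in VA-free and 308 and 372 CPM in control mice, and its log2 fold change was -1.22 (SE 0.12, adjusted p = 0.000531 by edgeR). Its VA-free values lay close together and far below both control mice.

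The anchors, which bind ubiquinone and heme, differed in the size of their change too. Sdhd was at 132, 128 and 121 CPM in VA-free and 242 and 247 CPM in control mice (log2 fold change -0.95, SE 0.11, adjusted p = 0.000763 by edgeR). Sdhc was at 70.2, 71.7 and 70.4 CPM in VA-free mice and at 112 and 80.3 CPM in control mice (log2 fold change -0.44, adjusted p = 0.0554 by edgeR). The control mice differed from each other more than control mouse 2 did from the VA-free mice. Every VA-free library was nevertheless below every control library. Sdhc passed as lower under 9 of 24 other ways of processing, and in 1 the sign turned. Without control library 2A its log2 fold change was -0.51 (adjusted p = 0.014 by edgeR). Per transcript length, in TPM (a library's share of transcripts after division by length), the order of the subunits was not the same in the diets. In VA-free mice Sdha was the most abundant of the 4, at 311 ± 8.43 TPM (SD, n = 3) against 247 ± 10.8 TPM for Sdhb, and in control mice Sdhb was, at 420 ± 66.2 TPM (SD, n = 2), with Sdhd at 279 ± 14.4 TPM and Sdha at 233 ± 14.4 TPM.

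In complex III the core proteins Uqcrc1 and Uqcrc2 and the redox subunits Cyc1 (cytochrome c1) and Uqcrfs1 (the Rieske iron-sulfur protein) had log2 fold changes between -0.73 and -0.37. The 5 small subunits, which hold no redox group, lay between -1.68 and -1.01.

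Cyc1 was at 191, 186 and 187 CPM in VA-free and 255 and 248 CPM in control mice (log2 fold change -0.42, adjusted p = 0.0158 by edgeR). The call of Cyc1 did not hold under 9 of 24 other ways of processing, in 1 of which the sign turned. Uqcrfs1 was at 89.7, 84.3 and 87.2 CPM in VA-free and 131 and 119.9 CPM in control mice (log2 fold change -0.52, adjusted p = 0.00738 by edgeR), and its call was lost under 4 of the 24. For both genes all 3 VA-free mice were close together and below both control mice. Uqcrc2, the complex III member with the smallest change, was at 113, 127 and 110.0 CPM against 153 and 147 CPM (log2 fold change -0.37, adjusted p = 0.0399 by edgeR). This call was lost under 10 of the 24, and in 2 more, both with TPM, the sign turned. Uqcrc1 was at 129, 123 and 149 CPM against 174 and 270.2 CPM (log2 fold change -0.73, adjusted p = 0.0225 by edgeR), with the upper control value set by library 2A, at 388 CPM, whereas the other 3 control libraries lay between 156 and 183 CPM. Without 2A the log2 fold change of Uqcrc1 was -0.42 (adjusted p = 0.0266 by edgeR), and its call was lost under 9 of the 24.

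Uqcr11, a small subunit of the membrane part (chr10:80402997-80406830, minus strand), was at 90.1, 96.2 and 97.6 CPM in VA-free and at 304 and 302 CPM in control mice, a 3.20-fold difference and the largest of the complex (log2 fold change -1.68, SE 0.10, adjusted p = 0.000226 by edgeR). The control mice were nearly equal for this gene although their libraries ranged from 172 CPM in 2B to 471 CPM in 2A. In TPM Uqcr11 was the most abundant complex III member in both diets, at 459 ± 7.07 TPM (SD, n = 3) in VA-free and 1071 ± 23.5 TPM (SD, n = 2) in control mice, and Uqcrfs1 had the lowest mean in both, at 122 ± 6.51 and 129 ± 3.72 TPM, although Uqcrc2 was below it in control libraries 1B and 2A. The ratio of the most to the least abundant subunit was smaller in VA-free MuSCs.

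Cycs, the soluble carrier of electrons between complexes III and IV (chr6:50562563-50566538), was at 39.0, 35.1 and 37.6 CPM in VA-free and 76.9 and 101 CPM in control mice. All VA-free mice were near the same low level, and the log2 fold change was -1.26 (SE 0.14, adjusted p = 0.000836 by edgeR). Among control libraries it spread from 51.4 CPM in 2B to 164 CPM in 2A, both from the same mouse. Without library 2A the log2 fold change was -0.79 (adjusted p = 0.011 by edgeR).

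The 11 subunits of the common complex IV enzyme, Ndufa4 included, had log2 fold changes between -1.54 and -0.80. Cox4i1, which binds the mitochondrially encoded catalytic core, was at 269, 268 and 294 CPM in VA-free and 515 and 451 CPM in control mice, the smallest change in the complex (log2 fold change -0.80, SE 0.12, adjusted p = 0.00218 by edgeR). Cox5a was at 50.7, 47.8 and 50.2 CPM against 125 and 111 CPM (log2 fold change -1.26, adjusted p = 0.00039 by edgeR). Cox5b, a zinc-binding subunit that like Cox5a faces the matrix, was at 70.8, 66.6 and 71.1 CPM against 144 and 133 CPM (log2 fold change -0.99, adjusted p = 0.000645 by edgeR). For all 3 every VA-free mouse was below both control mice.

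Several complex IV subunits exist as a widespread form and a form of heart and skeletal muscle or of other tissues. Of the widespread forms, Cox6a1 was at 126, 138 and 145 CPM against 421 and 341 CPM (log2 fold change -1.48, adjusted p = 0.000429 by edgeR) and Cox7a2 at 72.8, 72.2 and 70.9 CPM against 230 and 189 CPM (log2 fold change -1.54, adjusted p = 0.000318 by edgeR). Cox6b1 was at 89.7, 85.4 and 89.3 CPM against 241 and 209.6 CPM, and Cox7b at 40.2, 37.7 and 40.7 CPM against 104 and 94.0 CPM. Cox8a was at 166, 165 and 168 CPM against 358 and 245 CPM, with control mouse 2 closer to the VA-free mice than to control mouse 1 (log2 fold change -0.86, adjusted p = 0.00662 by edgeR, a call lost under 4 of 24 alternatives).

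The tissue forms were far less abundant and fell as well. Cox6a2, the form of mature muscle, was at 1.23, 1.35 and 0.948 CPM in VA-free and 6.07 and 4.0 CPM in control mice (log2 fold change -2.10, SE 0.33, adjusted p = 0.00276 by edgeR). Cox7a1 was at 1.12, 0.843 and 0.809 CPM against 3.46 and 2.93 CPM (log2 fold change -1.78, adjusted p = 0.00594 by edgeR) and Cox8b at 1.28, 1.09 and 1.09 CPM against 4.73 and 3.49 CPM (log2 fold change -1.83, adjusted p = 0.00363 by edgeR). These are the forms of the contractile fiber. Of its 16 markers, given above, 9 were lower and 0 higher, beside 22.5% and 18.9% of all genes tested. In all 12 lay below 0, and Myh1, Myh4, Atp2a1 and Ttn lay above it without passing. The marker sums did not overlap between the diets, but Acta1, the most abundant, did not pass (adjusted p = 0.0585 by edgeR). Whether fibers had a part in the fall of these forms was not tested. Cox6b2, a testis form, was at 3.13, 2.82 and 2.79 CPM against 6.82 and 4.52 CPM (log2 fold change -0.96, adjusted p = 0.0284 by edgeR), and its call was lost under 11 of 24 alternatives.

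Cox4i2, a form of lung and of cells that sense low oxygen (chr2:152754173-152765037), had the lowest log2 fold change of all 49 members, -2.90 (SE 0.32, adjusted p = 0.000746 by edgeR). It was at 0.916, 1.35 and 1.43 CPM in VA-free and at 11.1 and 7.25 CPM in control mice. As a share of Cox4i2 plus Cox4i1 in TPM, it made up 0.448% ± 0.0892 (SD, n = 3) in VA-free and 1.88% ± 0.357 (SD, n = 2) in control mice. The share of Cox8b over Cox8b plus Cox8a was 1.14% ± 0.108 and 2.20% ± 0.0914 in the same order, and that of Cox6a2 over Cox6a2 plus Cox6a1 was 0.712% ± 0.148 and 1.06% ± 0.155. For these 3 pairs the VA-free and control mice did not overlap. For Cox7a1 over Cox7a1 plus Cox7a2 they nearly met, at 1.81% to 2.41% in VA-free and 2.42% and 2.53% in control mice, and control library 2B, at 1.72%, lay within the VA-free range. Cox6b2 went the other way in share, from 2.33% ± 0.434 in control to 3.29% ± 0.458 in VA-free mice while both genes fell.

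Cox7a2l, the supercomplex factor, was at 58.4, 49.8 and 56.6 CPM in VA-free and 94.6 and 121 CPM in control mice (log2 fold change -0.97, adjusted p = 0.0021 by edgeR). Relative to Cox7a2, the subunit it resembles, its share in TPM was 28.9% ± 1.08 in VA-free (SD, n = 3) and 21.8% ± 5.34 in control mice (SD, n = 2), at 18.1% and 25.6% in the 2 control mice.

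**Figure D2:**
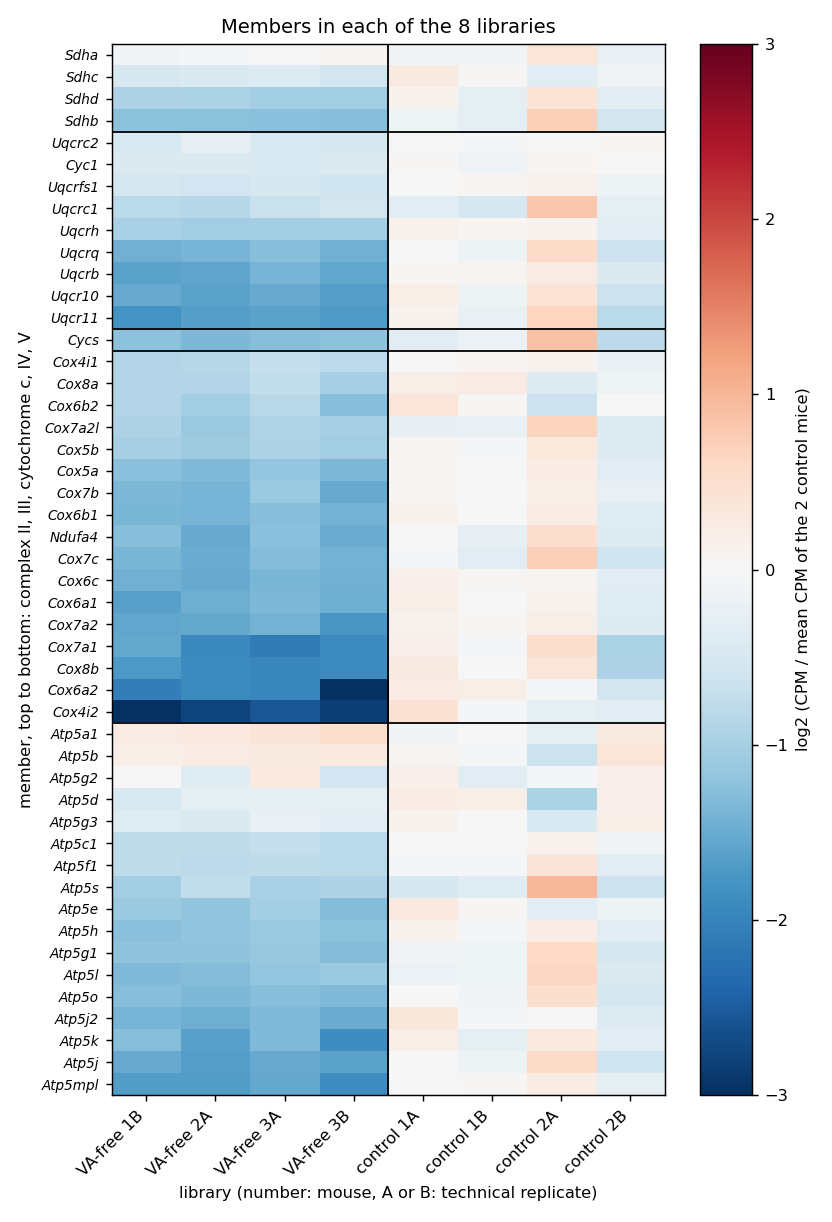
Each cell shows a member's CPM in 1 library over the mean of the 2 control mice, as log2, with blue for lower and red for higher, members grouped by complex and the vertical line between VA-free and control libraries; the read-through model of Atp5o is left out. The 4 VA-free libraries are blue in most rows, with Sdha, Atp5a1, Atp5b, Atp5g2, Atp5d and Atp5g3 pale or red, and control 2A is redder than control 2B in most rows.

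Complex V held members on both sides of 0. The F1 head, which makes ATP in the matrix, is built from the alpha subunit Atp5a1 and the catalytic beta subunit Atp5b around a central stalk of Atp5c1, Atp5d and Atp5e. Atp5b (chr10:128083273-128090391), the member with the highest CPM in every mouse, was at 1577, 1582 and 1658 CPM in VA-free and at 1423 and 1272 CPM in control mice. Every VA-free mouse was above both control mice, but the log2 fold change of 0.25 did not pass the threshold (SE 0.12, adjusted p = 0.135 by edgeR), and library control 2B was at 1722 CPM and 2A at 861 CPM.

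Atp5a1 was at 377, 382 and 423 CPM in VA-free and 311 and 307 CPM in control mice (log2 fold change 0.35, SE 0.11, adjusted p = 0.0465 by edgeR). This call was lost under 17 of 24 other ways of processing, with log2 fold changes from 0.20 to 0.85. The 3 stalk genes had log2 fold changes below 0. Atp5c1 was at 206, 201 and 203 CPM against 353 and 330.1 CPM (log2 fold change -0.75, adjusted p = 0.00178 by edgeR) and Atp5e at 39.7, 36.7 and 37.9 CPM against 97.9 and 69.2 CPM (log2 fold change -1.13, adjusted p = 0.00181 by edgeR). Atp5d was at 159, 179 and 181 CPM against 257 and 174 CPM, which overlap, and did not pass (log2 fold change -0.32, adjusted p = 0.202 by edgeR).

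The c-ring, the rotor that protons turn in the membrane, is made of subunit c, which 3 genes encode with the same mature protein and different import sequences. Atp5g1 was at 114, 111 and 111 CPM in VA-free and 244 and 267 CPM in control mice (log2 fold change -1.19, SE 0.11, adjusted p = 0.000404 by edgeR). Atp5g3 was at 174, 164 and 184 CPM against 239 and 202 CPM (log2 fold change -0.34, SE 0.12, adjusted p = 0.0661 by edgeR). Atp5g2, the least abundant, was at 10.3, 7.86 and 9.65 CPM against 10.1 and 10.2 CPM (log2 fold change -0.13, adjusted p = 0.640 by edgeR). In control mice Atp5g1 made up 52.9% and 58.5% of Atp5g1 plus Atp5g3 in TPM, and in VA-free mice 41.5%, 42.3% and 39.6%. By library the share was 38.6% to 42.3% in VA-free, 52.7% and 53.0% in control 1A and 1B, 72.4% for library 2A and 43.9% for 2B. In control mouse 2 the lead of Atp5g1 over Atp5g3 thus rested on library 2A, and in 2B Atp5g3 was the more abundant, as in the VA-free libraries. The level of Atp5g1 itself was above every VA-free library (103 to 117 CPM) in both, at 387 CPM in 2A and 178 CPM in 2B.

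In the peripheral stalk, which holds the head still, all 4 members fell. Atp5f1 (subunit b) was at 169, 163 and 165 CPM against 280.0 and 281 CPM (log2 fold change -0.76, adjusted p = 0.00147 by edgeR), and Atp5j, Atp5h and Atp5o lay between -1.55 and -1.18. The 4 small membrane subunits Atp5j2, Atp5k, Atp5l and Atp5mpl fell by 1.23 to 1.66 on the log2 scale. Atp5mpl was at 26.7, 25.9 and 25.9 CPM against 87.0 and 78.4 CPM, the lowest log2 fold change of complex V, -1.66 (SE 0.11, adjusted p = 0.000236 by edgeR). Atp5s was at 11.1, 13.2 and 11.4 CPM against 16.5 and 27.0 CPM (log2 fold change -0.87, adjusted p = 0.0219 by edgeR), with control library 2A at 43.5 CPM and the others at 14.1 to 16.9 CPM, and without 2A it did not pass (log2 fold change -0.37, adjusted p = 0.122 by edgeR), nor under 10 more of the 24 alternatives.

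A gene model with the symbol Atp5o but an identifier of its own, ENSMUSG00000116933, spans chr16:91684398-91926982 and ends inside the Atp5o gene (chr16:91925214-91931687, both on the minus strand). It was listed at 1.17, 1.2 and 0.394 CPM in VA-free and 0.0328 and 0.218 CPM in control mice (log2 fold change 2.84, SE 0.94, adjusted p = 0.0486 by edgeR), which rests on 0 to 17 counts in a control library and 16 to 107 in a VA-free library. Atp5o itself was at 114, 108 and 112 CPM against 275 and 269 CPM (log2 fold change -1.29). Reads that the models share were divided between them by estimation, so the value of the read-through model is uncertain.

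Transcript length went with the size of the change, among the members and among all genes. The log2 fold change rose with mean transcript length with a Spearman correlation of 0.62 across the 49 members and 0.38 across all 17997 genes tested, where genes share libraries and are not independent. Across all genes the median log2 fold change was -0.39 for transcripts under 500 nt, -0.81 for 500 to 1000 nt, -0.30 for 1000 to 2000 nt, 0.23 for 2000 to 4000 nt and 0.60 for 4000 nt and over. The members are short, with a median of 660.5 nt against 2122 nt for all genes tested. Their own medians were -1.43 for the 12 under 500 nt, -1.19 for the 25 from 500 to 1000 nt, -0.75 for the 9 from 1000 to 2000 nt and -0.02 for the 3 above, each below the median of all genes of that length. In the class from 500 to 1000 nt 45.7% of all genes were lower, and 20 of the 25 members were. Length trends were also present between technical replicates of the same mouse, where the diet is the same. Over all genes tested, the Spearman correlation of the log2 ratio with length was -0.31 for control 2A over 2B. It was -0.14 for control 1A over 1B and -0.07 for VA-free 3A over 3B. Across the members these correlations were -0.16, -0.38 and -0.49. The cause of the length trend was not tested.

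The relation with length was not alike in the complexes. The Spearman correlation was 0.77 in complex III (9 genes), 0.59 in complex V (18 genes) and 0.15 in complex IV (17 genes), whose members span only 360 to 1077 nt. Cycs, with a mean transcript length of 2308 nt, fell by 1.26 on the log2 scale in a class whose median was 0.23, while Sdha (2818 nt) and Atp5a1 (2306 nt) in the same class were at -0.02 and 0.35. Transcripts of the same gene can be compared with each other too. For 20 members at least 2 transcripts each held 5% or more of the gene's counts and passed a minimum of counts. The longest of them had the higher log2 ratio in 9, with a median difference of -0.03 between the longest and the shortest. Lengths were close in some pairs (723 and 714 nt in Atp5g3) and far apart in others (6310 and 295 nt in Atp5l). Reads that transcripts share were divided by estimation, so these pairs cannot settle a relation with length within a gene.

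**Figure D3:**
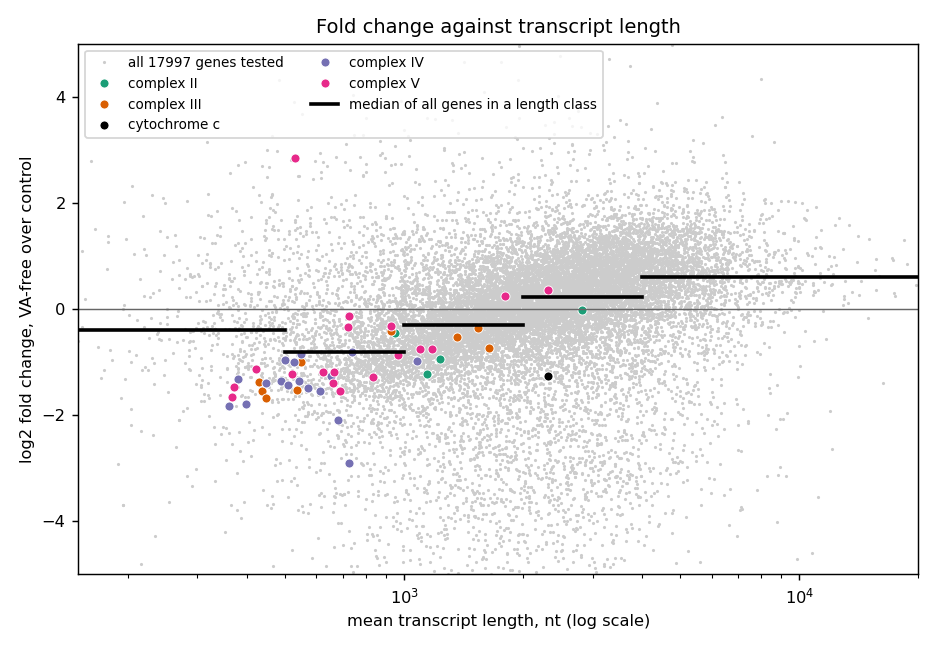
The log2 fold change is plotted against mean transcript length on a log scale, with all 17997 genes tested in grey, members in color by complex and black bars for the median of all genes in 5 length classes; 5 units above and below 0 are shown. Most members lie below the bar of their class, and Cycs and Sdha, of similar length, lie apart.

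When the trend of each mouse with length was fitted across all genes and taken out as an offset, 28 members were lower and 3 were higher, beside 16.9% lower and 12.7% higher of all genes tested. The members' median log2 fold change was then -0.49. In complex IV 12 of 17 remained lower with a median of -0.68, in complex III 4 of 9 with -0.54, in complex V 9 of 18 with -0.33 and in complex II the same 2 of 4, Sdhb and Sdhd, with -0.38. Cycs was at -1.37 (adjusted p = 0.00122 by edgeR), Sdhb at -0.68 (adjusted p = 0.00708 by edgeR) and Cox4i2 at -2.13 (adjusted p = 0.00351 by edgeR).

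With the trend taken out, 4 of the 5 small subunits of complex III were still lower and neither core protein nor redox subunit was, with Cyc1 at 0.28 (adjusted p = 0.0835 by edgeR). The 4 small membrane subunits of complex V were all still lower. Cox4i1 was at -0.03 (adjusted p = 0.852 by edgeR) and Cox8a at -0.12, whereas 8 of the 11 common complex IV subunits and 4 of the 5 tissue forms stayed lower. The c-ring genes, which are of similar length (666 to 725 nt), then lay on both sides of 0, with Atp5g1 at -0.43 (adjusted p = 0.0294 by edgeR), Atp5g3 at 0.43 (adjusted p = 0.0327 by edgeR) and Atp5g2 at 0.64 (adjusted p = 0.0475 by edgeR). Atp5a1 was at 0.24 and Atp5b at 0.35, and neither passed.

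**Figure D4:**
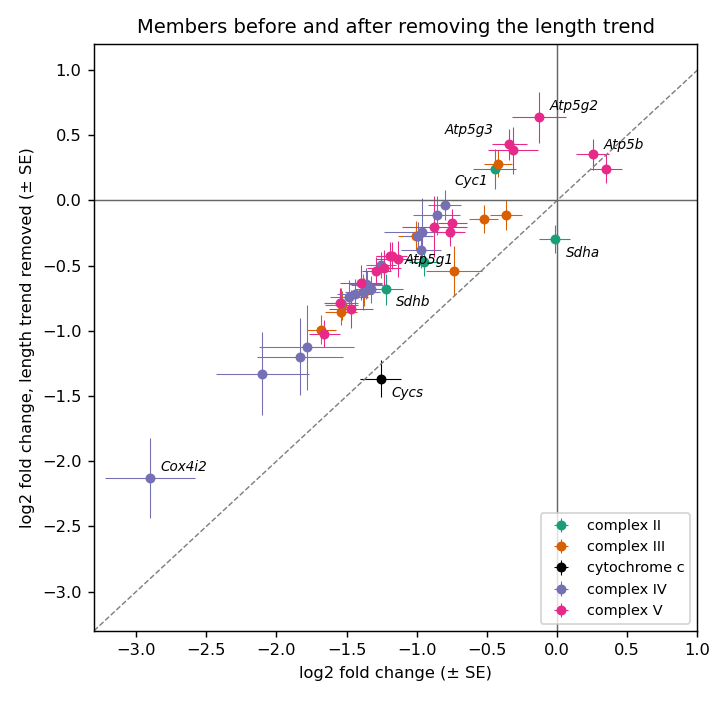
The log2 fold change with the length trend taken out (vertical) is plotted against that without (horizontal) for 48 members, with standard errors as bars and a dashed line of equality; the read-through model of Atp5o is left out. Most members lie above the line, Cycs, Sdha and Atp5a1 lie below it, and Atp5g2, Atp5g3, Atp5d, Sdhc and Cyc1 cross from below 0 to above it.

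Technical replicates of the same mouse differed in these genes. In control mouse 2 library 2A was above 2B for 38 of the 49 members, with a median log2 ratio of 0.56 and a range from -1.10 for Atp5d to 1.67 for Cycs, where the median over all genes tested was -0.05. The corresponding medians were 0.12 for control 1A over 1B and 0.11 for VA-free 3A over 3B. Among the members that were lower in 2A than in 2B were further genes of the F1 head and the c-ring, with Atp5b at -0.999, Atp5g3 at -0.63 and Atp5a1 at -0.56, and Cox6b2 at -0.56. In 42 of 49 members every VA-free library was nevertheless below all 4 control libraries, which held for 21.4% of all genes tested. Without control 2A 43 members were lower and 0 were higher in edgeR (1 at an unadjusted p under 0.05), with a median of -0.97, beside 21.6% lower and 18% higher of all genes. Without control 2B 36 were lower and 1 higher, with a median of -1.44, beside 16.1% and 9.08% of all genes.

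**Figure D5:**
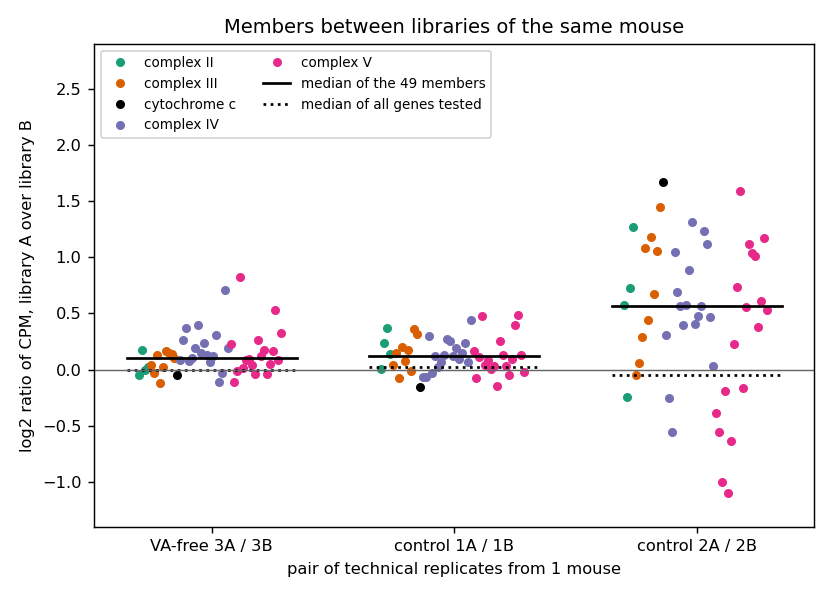
The log2 ratio of CPM between libraries A and B of the same mouse is plotted for the 49 members, colored by complex and spread sideways by complex, with the members' median as a solid line and that of all genes tested as a dotted line. In the pair from control mouse 2 the members spread from -1.10 to 1.67, and in the other pairs they stay between -0.15 and 0.83.

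Complexes III, IV and V also hold subunits that mitochondrial DNA encodes, and all 6 of these partners were lower, with a median log2 fold change of -2.42. mt-Cytb, the cytochrome b of complex III, was at 1410.5, 1056 and 1236 CPM in VA-free and 5575 and 7586 CPM in control mice (log2 fold change -2.41, adjusted p = 0.000309 by edgeR). mt-Co1, the catalytic subunit of complex IV, was at 1616, 1139 and 1572 CPM against 7438 and 9611 CPM, and mt-Atp6, which forms the proton path of complex V, at 838, 702 and 992 CPM against 3984 and 5091 CPM. With the mitochondrially encoded genes left out of the library sizes, 41 nuclear members were lower and 2 were higher.

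Of the 38 assembly factors and regulators tested for these complexes, 22 were lower and 4 higher, with a median of -0.79, beside 22.5% lower and 18.9% higher of all genes. By complex, 2 of 4 were lower for complex II, 3 of 6 for III, 13 of 23 for IV and 4 of 5 for V. Among the more abundant of those past the threshold were Atpif1, the inhibitor of ATP hydrolysis by complex V, Higd1a, Coa5 and Cox14. Atpif1 was at 63.1, 60.6 and 61.5 CPM in VA-free and 184 and 200.2 CPM in control mice (log2 fold change -1.64, adjusted p = 0.000226 by edgeR), as far down as the small membrane subunits. Cox14 was at 37.5 ± 2.76 and 91.2 ± 10.1 CPM (SD, n = 3 and n = 2, log2 fold change -1.28), and Higd1a at 51.0 ± 3.10 and 88.5 ± 15.4 CPM (log2 fold change -0.79). Coa5, which takes part in the assembly of complex IV, was higher, at 70.4 ± 1.10 and 46.3 ± 1.55 CPM (log2 fold change 0.61, adjusted p = 0.00411 by edgeR).

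RefSeq promoters of GRCm38.p6, from 250 bases before to 50 after the start, were matched to 36 of the 51 members, and 15 had no entry. They were searched on both strands for 5 motifs, which were GCGCA directly followed by TGCGC for NRF-1, CCGGAAG for ETS factors such as GABP, AAGATGGC for YY1, TCAAGGTCA for estrogen-related receptors (ERR), and for the retinoic acid receptor AGGTCA, any 5 bases and AGGTCA again. The NRF-1 letters were in 4 of 36 members (11.1%) and in 1.07% of all genes with a promoter, the ETS letters in 12 of 36 (33.3%) and 9.93%, the YY1 letters in 2 (5.56%) and 3.19%, and the ERR letters in 2 (5.56%) and 0.466%. The receptor repeat was in 0 of 36 members and in 3 of 27025 genes. The ERR letters hold AGGTCA, the half-site that the receptor repeat is made of. A match of letters is a description of the sequence and not a measured site.

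Stretches before the start are shown for 4 genes, on the minus strand of GRCm38.p6, 5′ to 3′, with matches to the motifs in capitals and without the bases that an annotated exon covers. Atp5g1 and Atp5g3 are shown since they encode the same protein of the c-ring and differed in change, Uqcr11 for the largest difference of complex III, and Cox6a1 for the NRF-1 match in a common complex IV subunit.
Atp5g1, chr11:96075671-96075881: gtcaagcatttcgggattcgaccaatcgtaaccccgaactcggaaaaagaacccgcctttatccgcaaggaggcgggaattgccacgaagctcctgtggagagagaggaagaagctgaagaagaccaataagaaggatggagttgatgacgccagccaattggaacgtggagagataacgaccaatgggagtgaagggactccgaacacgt
Atp5g3, chr2:73911327-73911576: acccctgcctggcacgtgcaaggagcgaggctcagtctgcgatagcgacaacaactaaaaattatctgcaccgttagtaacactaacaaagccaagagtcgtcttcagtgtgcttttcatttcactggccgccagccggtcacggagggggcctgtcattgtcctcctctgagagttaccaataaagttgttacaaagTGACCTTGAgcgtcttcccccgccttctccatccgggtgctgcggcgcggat
Uqcr11, chr10:80406831-80407071: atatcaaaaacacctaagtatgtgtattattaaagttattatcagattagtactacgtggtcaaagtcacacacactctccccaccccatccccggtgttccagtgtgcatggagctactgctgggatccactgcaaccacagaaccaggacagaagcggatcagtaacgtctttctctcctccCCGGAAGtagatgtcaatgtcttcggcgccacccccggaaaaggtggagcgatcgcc
Cox6a1, chr5:115348982-115349208: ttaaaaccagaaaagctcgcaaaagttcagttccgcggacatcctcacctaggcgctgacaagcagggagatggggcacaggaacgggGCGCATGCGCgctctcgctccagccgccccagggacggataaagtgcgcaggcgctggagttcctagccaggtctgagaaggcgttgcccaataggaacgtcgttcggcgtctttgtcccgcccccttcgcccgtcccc
Atp5g1, which fell by 1.19 on the log2 scale, holds none of the 5 motifs in the stretch shown. Atp5g3, which did not pass, holds the ERR letters, read on the opposite strand, with the first base 52 bases before the start. In Cox6a1 the NRF-1 letters begin 162 bases before the start and in Uqcr11 the ETS letters begin 66 bases before it. The searched promoter of Cox6a1 holds the ETS letters as well, outside the stretch shown. Cox6a1 fell by 1.48 and Uqcr11 by 1.68 on the log2 scale, and Atp5g2, which did not pass the threshold, holds the NRF-1 letters too.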

How the data were processed

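SMART-Seq v4 and Nextera XT libraries, which keep no strand, were read at 75 bp. With kallisto 0.46.2 and the mouse GRCm38 transcriptome of Ensembl 96, the authors made and deposited an estimated count and a TPM value per transcript and library, neither normalized between libraries. The authors' TPM divides estimated counts by effective transcript length before scaling and thereby loses the depth. Estimated counts were added per gene through the Ensembl 96 annotation, added over libraries A and B of a mouse, and rounded. Counts on transcripts without a gene (0.647% to 0.756%) were left out.

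Diets were compared over the 5 mice by the quasi-likelihood test of edgeR 4.0.16 (R 4.3.3) after TMM scaling and filterByExpr, with p-values adjusted by Benjamini-Hochberg over 17997 genes and a threshold of 0.05. Levels are TMM-scaled CPM. Standard errors (SE) are the size of the log2 fold change over the square root of the F statistic. The methods of the study name tximport and DESeq2, and DESeq2 1.42.0, limma-voom and limma 3.58.1 on log2(TPM + 1) were among 24 alternatives. Transcript length is the TPM-weighted mean over the 8 libraries, and its trend was fitted per mouse by lowess with a span of 0.3. The scripts were tested on simulated counts. Reads shared with pseudogenes or overlapping genes were divided by estimation, so such values are uncertain.

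Only 2 control mice are analysed here, so their spread is the difference of 1 pair. Counting error is small at these depths except for the tissue forms and the read-through model. No pair of libraries agreed within counting noise. The chi-square per gene, which grows with depth, was 10.1 for VA-free 3A and 3B and 49.1 for control 1A and 1B. For control 2A and 2B, from 1 mouse, it was 563.89. Control 2B against the VA-free libraries gave 373.46 to 563.54, and control 2A against them gave 1026 to 1378. The difference within control mouse 2 was thus as large as that between its library 2B and the VA-free libraries. Every member is counted, and values in every mouse are given for core subunits, tissue isoforms, c-ring genes, the lowest and highest member of each complex and members that did not fall; the subunit b gene Atp5pb is Atp5f1 in this annotation. The members, lists and named genes were chosen with earlier results of these data known.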

Additional observations from a re-analysis of the deposited data

Results flagged for a closer look

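Of 98 groups of 4 libraries (49 members in each diet), 6 held a library farther from the rest than the 95% limit of Dixon's gap test for 4 values, and chance alone is set to give about 1 in 20. Control library 2A held 4 of the 6. It was at 388.06 CPM for Uqcrc1, where the other control libraries lay between 156 and 183 CPM, at 172.478 CPM for Cox7a2l (others 83.0 to 92.4 CPM), at 43.478 CPM for Atp5s (others 14.1 to 16.9 CPM) and at 111.92 CPM for Atp5d (others 240.0 to 252 CPM), the only one of these where it was low. In VA-free libraries 1B was low for Atp5d, at 155.891 CPM against 178 to 179 CPM, and 2A was high for Uqcrc2, at 126.831 CPM against 107 to 110.3 CPM. Libraries 2A and 2B came from the RNA of the same mouse, and the cause of their difference was not tested.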

How the results depend on the processing

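The count of lower members was between 28 and 43 under the 24 alternatives, within 1.5 times of 41 in each. Of the 41, 28 kept their call under every alternative, and 13 lost it under at least 1. For 6 of the 13 (Atp5c1, Atp5f1, Cox4i1, Cox5b, Cox7a2l and Uqcrh) that was only with the length trend removed. Among the members that did not pass, Sdhc passed as lower under 9 of the 24, Atp5g3 under 4 and Atp5d under 2. The 2 higher members numbered 1 with RLE size factors, without an expression filter, with DESeq2 on 8 libraries, with limma-voom, with 1 library per mouse and with the replicate block, 0 with edgeR on 8 libraries, 4 with TPM, where Sdha and Atp5b joined, and 0 to 2 when a mouse or library was left out. Where edgeR gave 0, 1 or 2 members were higher at an unadjusted p under 0.05. With 1 control mouse left out, the other is assumed to vary like the VA-free mice. In TPM the median of all genes moved to 0.19 (pseudocount 1) or 0.35 (0.1).

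Median log2 fold changes for the members and complexes II, III, IV and V were -1.35, -0.80, -1.11, -1.54 and -1.19 with 1 library per mouse, -0.49, -0.38, -0.54, -0.68 and -0.33 with the length trend removed (Spearman correlation with length 0.47), -0.73, -0.25, -0.56, -0.98 and -0.56 with log2(TPM + 1), and -0.73, -0.25, -0.56, -0.98 and -0.57 with a pseudocount of 0.1. Complex II was at -0.72 without a filter and -0.72 with edgeR on 8 libraries, where complex V was at -1.05. Leaving out a mouse or library gave ranges of -1.44 to -0.97, -0.80 to -0.57, -1.15 to -0.93, -1.58 to -1.25 and -1.25 to -0.82 for the 5 medians, and 0.51 to 0.70 for the correlation. The ends were without control 2B and 2A, except for complex II without control mouse 1 (-0.57) and the correlation.

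The sign turned with the length trend removed for Atp5d (0.38), Atp5g3 (0.43), Cyc1 (0.28), Sdhc (0.24) and Atp5g2 (0.64), and with TPM at pseudocounts of 1 and 0.1 for Atp5d (0.14 and 0.14), Atp5g3 (0.0844 and 0.0845), Sdha (0.42 and 0.42), Uqcrc2 (0.19 and 0.19) and Atp5g2 (0.29 and 0.30). Without 1 mouse or library, Sdha ranged from -0.22 to 0.10 and Atp5g2 from -0.29 to 0.0089. The cause was not tested.

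With the replicate number as a block, 36 members were lower and 1 higher, with medians of -1.19 for all, -0.67 for complex II and -0.96 for V. The deviations of mice of the same number were nearly uncorrelated (r = -0.065 and 0.010). With so few control mice, the deviations from the control mean mirror each other. These values therefore cannot decide whether mice of the same number share more than a number.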
